A study of Mus musculus with 20 samples.

Results

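Ttr encodes transthyretin, a protein secreted into plasma as a tetramer. It is described here in mouse kidney, with Rbp4, the gene of its carrier partner, set beside it. Ttr was chosen on its higher level in Hyp than in normal kidney in these same arrays. All probe sets that the platform annotation assigns to Ttr alone were taken, which gave 1 probe set, for 1 of the 8251 genes with a probe set of their own. Rbp4 was also read by 1 probe set. Different probe sets bind with different strength, so the intensity of Ttr is not set against that of Rbp4 or of any other gene.

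Transthyretin carries thyroxine in plasma and, by binding the retinol-binding protein RBP4, also carries retinol and keeps that small protein from being lost through the glomerulus. The liver and the choroid plexus are its known main sources. Filtered transthyretin and RBP4 are taken up again in the proximal tubule by the endocytic receptor megalin, the product of Lrp2.

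The series compared kidney RNA of Hyp and normal mice, all C57BL/6J, on a low phosphate or a control diet. In Hyp mice the X-linked gene Phex is mutated, and the kidney loses phosphate as it does in human X-linked hypophosphatemia, which they model. The 4 groups were Hyp mice on low phosphate diet (arrays 4, 8, 10, 14 and 18), Hyp mice on control diet (3, 7, 9, 13 and 17), normal mice on low phosphate diet (2, 6, 12, 16 and 20) and normal mice on control diet (1, 5, 11, 15 and 19). Each array held RNA pooled from 3 mice, so a p-value measures the spread between pools. Of the 20 arrays, 12 came from mice on their diet for 5 days and 8 from mice on it for 3 days, and 8 came from females and 12 from males. The labels do not give the age of the mice.

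The deposited values are linear intensities, and their trimmed mean, 500.254 to 500.309 units, was set nearly equal on all arrays by the authors. Arrays 5 to 8, the females fed for 5 days, stood apart from the rest. Their median rank correlations with the other arrays were 0.895 to 0.934, and their 3′ to 5′ actin ratios were 1.74 to 2.61, with 1.22 to 1.98 on the other 16 arrays. Arrays 9 and 10 had median rank correlations of 0.943 and 0.947, and the remaining arrays 0.958 to 0.969. Markers of the labelled tissue were bright in all groups. Kap, a proximal tubule gene, averaged 26938, 27017, 28661 and 25990 units in Hyp low phosphate, Hyp control, normal low phosphate and normal control kidneys. Umod, a gene of the thick ascending limb, averaged 10329, 9956, 10576 and 9421 units in the same order of groups. Not all kidney markers were level between groups. With the diets averaged, limma called 3 of 7 distal nephron probe sets between genotypes (42.9%, against 1.28% of all). It called 1 of 12 for the proximal tubule (8.33%). The fitted difference of these 12, Hyp minus normal, was above 0 for 2 (median log2 -0.08, beside 0.02 for all probe sets). Summed proximal tubule markers ran from 99191 to 117970, 100951 to 118228, 113843 to 124507 and 105591 to 116757 units in the same order of groups. Without array 10 the Hyp low phosphate sums reached only 107653 units, below the lowest normal low phosphate sum. The part of this in the level of Ttr was not tested. Array 10, a Hyp male pool on low phosphate diet, also held high levels of liver transcripts. It had the highest intensity of all 20 arrays for 16 of 19 measured hepatocyte genes, among them Alb (albumin) at 13097 units.

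In Hyp mice on low phosphate diet, the Ttr intensity was 1036.5, 916.3, 1535.3, 1029.7 and 1017.1 units on arrays 4, 8, 10, 14 and 18. In Hyp mice on control diet it was 3780.9, 3959.3, 4284.4, 3164.1 and 1994.4 units on arrays 3, 7, 9, 13 and 17. Every control-diet array of the Hyp mice was therefore above every low phosphate array of the Hyp mice, with the female 3-day pool (array 17) the lowest of the control-diet arrays. In normal mice on low phosphate diet the intensity was 186.2, 98.6, 142.8, 183 and 195.7 units on arrays 2, 6, 12, 16 and 20. In normal mice on control diet it was 418.3, 415.4, 492.7, 367.7 and 478.6 units on arrays 1, 5, 11, 15 and 19. Here too the diets did not overlap, and both normal groups lay below all 10 Hyp arrays.

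The mean Ttr intensities were 1107 ± 244 units in Hyp low phosphate kidneys, 3437 ± 903 units in Hyp control kidneys, 161 ± 40.5 units in normal low phosphate kidneys and 435 ± 51.0 units in normal control kidneys (SD, n = 5 each). Ordered by level, Hyp control kidneys came first, then Hyp low phosphate, normal control and normal low phosphate kidneys, with no overlap between any neighbours in that order. The lowest Hyp control array (1994.4 units) was above the highest Hyp low phosphate array (1535.3 units). The lowest Hyp low phosphate array (916.3 units) was above the highest normal control array (492.7 units). The lowest normal control array (367.7 units) was above the highest normal low phosphate array (195.7 units). In these bulk RNA samples a change in the number of cells that hold the transcript and a change in RNA per cell cannot be told apart.

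**Figure D1:**
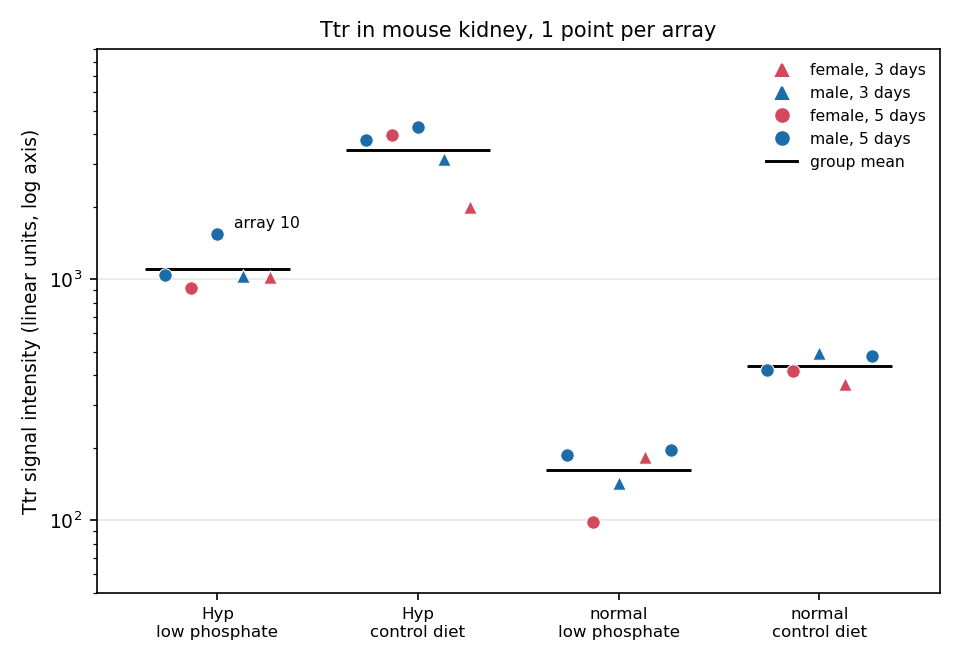
Ttr signal intensity in linear units on a log axis, with 1 point per array in each of the 4 groups, coloured by sex and shaped by days on the diet; bars are the means of 5 arrays. The groups do not overlap, and array 10 at 1535.3 units is the highest of the Hyp low phosphate arrays.

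Since the higher level in Hyp kidney is what Ttr was chosen on, that difference is given as a description and was not tested. On low phosphate diet the mean Ttr intensity was 6.86 times as high in Hyp as in normal kidneys, and on control diet 7.91 times as high. As fitted log2 differences, Hyp minus normal, these were 2.53 on low phosphate diet and 2.84 on control diet. Over all 8695 probe sets tested with limma at an adjusted p under 0.05, 0.357% were called between genotypes on low phosphate diet, 0.253% on control diet and 1.28% with the diets averaged. Nothing is read from those shares for Ttr.

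The size of the genotype difference could also be followed through the 4 runs of consecutive arrays that hold 1 array of each group. On low phosphate diet the Hyp array had 5.57, 9.29, 7.21 and 5.56 times the Ttr intensity of the normal array in arrays 1 to 4, 5 to 8, 11 to 14 and 15 to 18. On control diet these ratios of intensity were 9.04, 9.53, 6.42 and 5.42 in the same runs. The lowest control-diet ratio came from the female 3-day run and the highest from the female 5-day run.

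The diet comparison asked whether phosphate restriction altered the level of Ttr in each genotype. The rule that chose Ttr used the genotype difference, but its fall on low phosphate diet was also known from these arrays, so the tests below are not independent evidence of that fall. Ttr fell on the low phosphate diet in both genotypes, and in each of them its p was the third smallest of 8695 probe sets. In Hyp mice the log2 difference, low phosphate minus control, was -1.58 ± 0.17 (SE; 95% interval -1.94 to -1.22; limma, adjusted p = 0.000149). In normal mice it was -1.27 ± 0.17 (SE; 95% interval -1.63 to -0.90; limma, adjusted p = 0.00269). Of all probe sets, 0.15% were called for diet in Hyp mice and 0.184% for diet in normal mice.

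As ratios of mean intensity, low phosphate over control was 0.322 in Hyp mice and 0.371 in normal mice, so the mean was lower by 67.8% and 62.9% of its control-diet value. The same loss in intensity units was 2330 in Hyp mice and 273 in normal mice. Even on low phosphate diet the Hyp kidneys had 2.55 times the mean Ttr intensity of normal kidneys on control diet.

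All 5 pairs of low phosphate and control arrays within a run gave a ratio under 1 in each genotype. In Hyp mice the ratios of Ttr intensity, low phosphate over control, were 0.274, 0.231, 0.358, 0.325 and 0.510 in arrays 1 to 4, 5 to 8, 9 to 10, 11 to 14 and 15 to 18. In normal mice they were 0.445, 0.237, 0.290, 0.498 and 0.409 in arrays 1 to 4, 5 to 8, 11 to 14, 15 to 18 and 19 to 20. The smallest drop in both genotypes was in the female 3-day run and the largest in the female 5-day run. With the labels of diet rearranged within strata of sex and days, the exact two-sided permutation p was 0.0417 in each genotype, the smallest that the 48 arrangements allow.

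**Figure D2:**
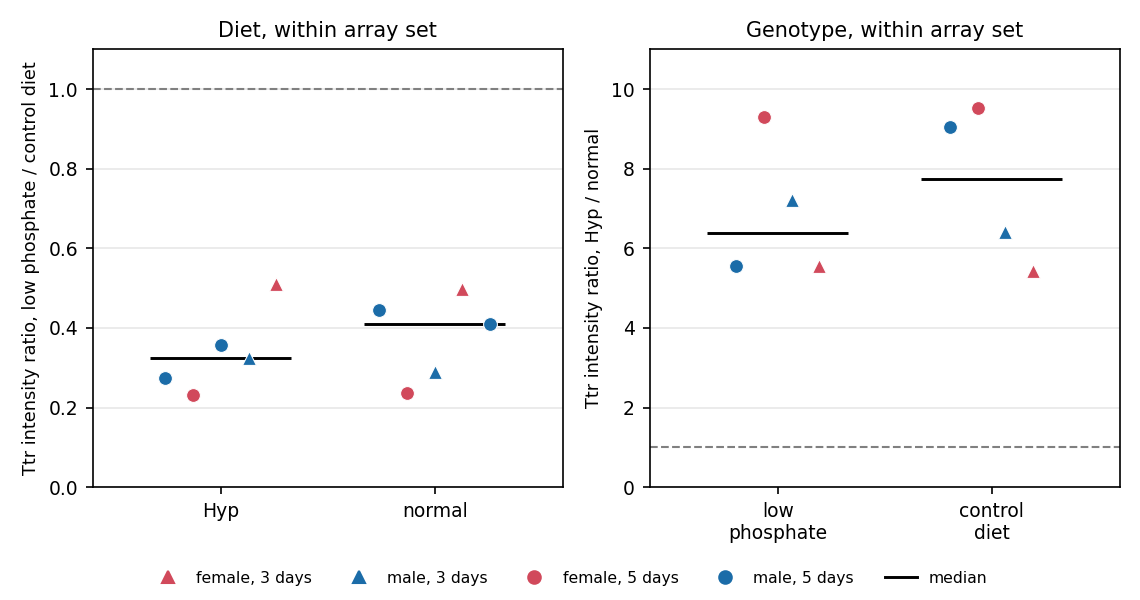
Ttr intensity ratios within runs of consecutive arrays, with 1 point per run, coloured by sex and shaped by days; bars are medians and the dashed line is a ratio of 1. All low phosphate over control ratios lie between 0.231 and 0.510, and all Hyp over normal ratios between 5.42 and 9.53.

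Whether the diet response of Ttr differed between genotypes was tested as an interaction. The log2 diet difference in Hyp mice minus that in normal mice was -0.31 (95% interval -0.82 to 0.20; limma, adjusted p = 1.00), and it did not pass the threshold. The interval still allows a Hyp response that is larger by 0.82 or smaller by 0.20 on the log2 scale. The 38 units added before log2 shrink the fall more in the dimmer normal arrays. Over the alternatives run, the interaction lay between -0.48 and -0.05 and was called in none. For this interaction 0.046% of all probe sets were called.

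Array 10, with its liver transcripts, was also the highest Ttr array of the Hyp low phosphate group, at 1535.3 units with 1036.5 units next. Without it, that group averaged 999.9 ± 56.3 units (SD, n = 4) and the log2 diet difference in Hyp mice was -1.66 (limma, adjusted p = 0.000233). With arrays 5 to 8 left out as well, a setting chosen after the data were seen, the differences were -1.55 in Hyp mice (limma, adjusted p = 0.00410) and -1.15 in normal mice (limma, adjusted p = 0.0257). The fall on low phosphate diet was thus called with and without these arrays.

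Days on the diet were examined next. In Hyp mice on low phosphate diet the mean Ttr intensity was 1163 units at 5 days (n = 3) and 1023 units at 3 days (n = 2). In Hyp mice on control diet it was 4008 units at 5 days, with arrays between 3780.9 and 4284.4, and 2579 units at 3 days, with arrays at 1994.4 and 3164.1. The durations thus did not overlap in Hyp mice on control diet. With 3 arrays against 2, and no share counted over all probe sets, nothing is read from that. In normal mice on low phosphate diet the means were 160 and 163 units at 5 and 3 days, and on control diet 437 and 430 units.

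Over all groups the log2 difference of Ttr, 5 minus 3 days, was 0.14 (95% interval -0.12 to 0.41; limma, adjusted p = 0.386). In the same fit 40.9% of all probe sets were called for days. The 3-day arrays are numbers 11 to 18, so duration and array run cannot be told apart. The interaction of genotype with days, which is the genotype difference at 5 days minus that at 3 days, was 0.41 on the log2 scale (95% interval -0.08 to 0.91; limma, adjusted p = 0.878). For the diet difference at 5 days minus that at 3 days, the value was -0.30 (95% interval -0.82 to 0.21; limma, adjusted p = 1.00). With limma 0 probe sets were called for either interaction (0% each), while 474 had an unadjusted p under 0.05 for genotype by days and 291 for diet by days.

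Sex was the other factor in the labels. The log2 difference of Ttr, female minus male, was -0.26 (95% interval -0.53 to 0.01; limma, adjusted p = 0.168), where 16.6% of all probe sets were called. The genotype difference in females minus that in males was -0.09 (95% interval -0.62 to 0.45; limma, adjusted p = 0.954). For that interaction limma called 0 probe sets (0%), and 558 had an unadjusted p under 0.05.

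**Figure D3:**
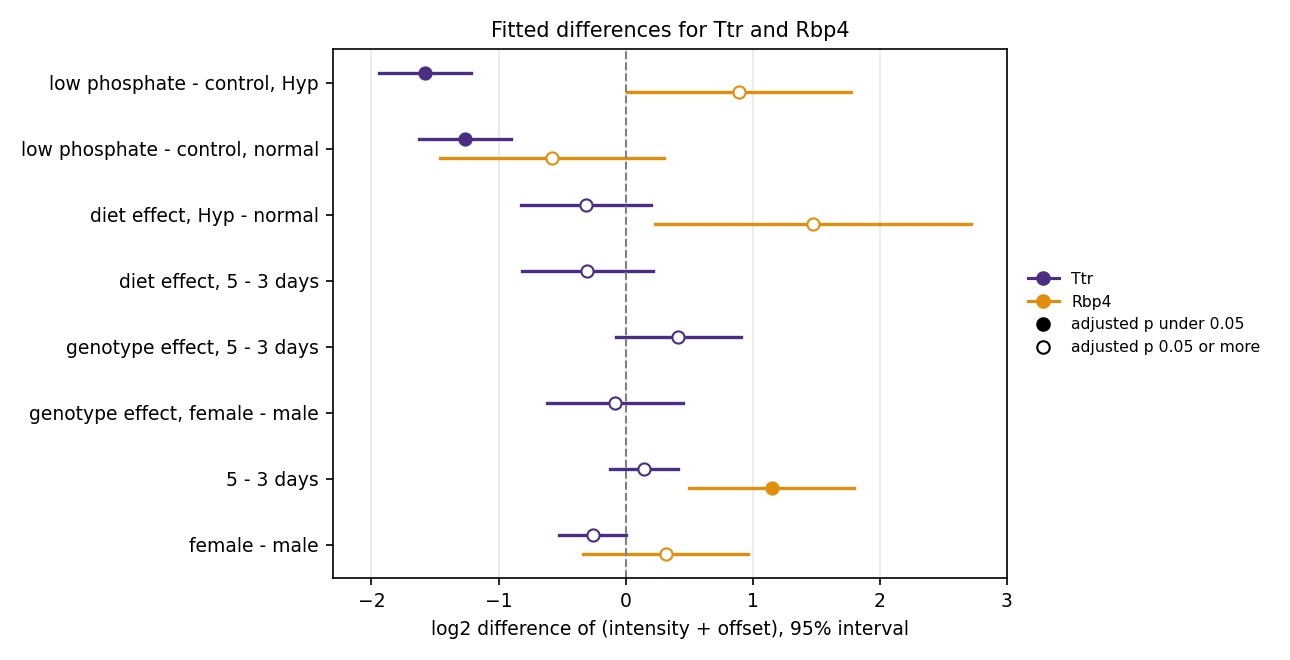
Fitted differences of log2(intensity + offset) for Ttr and Rbp4 with 95% intervals from limma; filled points passed an adjusted p of 0.05. Both diet differences of Ttr lie below 0, at -1.58 and -1.27, while of the Rbp4 differences shown only that between 5 and 3 days (1.15) passed.

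Rbp4, the gene of the retinol carrier that travels with transthyretin, did not follow the same order of groups. In Hyp mice on low phosphate diet its intensity was 94.4, 252.1, 730.5, 59.4 and 63 units on arrays 4, 8, 10, 14 and 18. In Hyp mice on control diet it was 72.5, 234.1, 25.3, 45.2 and 45.2 units on arrays 3, 7, 9, 13 and 17. The 5-day female pool stood highest among the Hyp control arrays, and array 10 highest among the Hyp low phosphate arrays. In normal mice on low phosphate diet the intensity was 72.9, 244.1, 11.6, 20.1 and 87.6 units on arrays 2, 6, 12, 16 and 20. In normal mice on control diet it was 127.5, 168.2, 158.5, 56.2 and 95.6 units on arrays 1, 5, 11, 15 and 19. All neighbouring groups overlapped. The Rbp4 probe set was dim, with group medians of 94.4, 45.2, 72.9 and 127.5 units in the order given. The filter asked for a mean of 79.44 units over all arrays.

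The mean Rbp4 intensities were 240 ± 285 units in Hyp low phosphate, 84.5 ± 85.3 units in Hyp control, 87.3 ± 93.6 units in normal low phosphate and 121 ± 46.2 units in normal control kidneys (SD, n = 5 each). Without array 10 the Hyp low phosphate mean was 117 ± 91.3 units (SD, n = 4). The log2 difference, low phosphate minus control, was 0.89 ± 0.42 in Hyp mice (SE; 95% interval 0.01 to 1.77; limma, adjusted p = 0.998) and 0.39 without array 10 (limma, adjusted p = 0.920). In normal mice it was -0.58 (95% interval -1.46 to 0.30; limma, adjusted p = 0.777). The exact permutation p within strata, two-sided and for this gene alone, was 0.0417 in Hyp mice and 0.208 in normal mice.

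Between genotypes, the log2 difference of Rbp4, Hyp minus normal, was 0.94 on low phosphate diet (limma, adjusted p = 0.494) and -0.54 on control diet (limma, adjusted p = 0.732). The difference on low phosphate diet was 0.43 without array 10 (limma, adjusted p = 0.766). The genotype by diet interaction was 1.47 (95% interval 0.23 to 2.71; limma, adjusted p = 1.00), and 0.96 without array 10. With the diets averaged, the genotype difference was 0.20 (limma, adjusted p = 0.779) and turned to -0.05 without array 10, and the difference between sexes, female minus male, was 0.31 (limma, adjusted p = 0.518). None of these passed the threshold. Rbp4 was higher at 5 than at 3 days, by 1.15 ± 0.31 on the log2 scale (SE; 95% interval 0.50 to 1.80; limma, adjusted p = 0.00745), but by 0.64 without arrays 5 to 8 (limma, adjusted p = 0.394) and 0.33 without arrays 5 to 8 and 10 (limma, adjusted p = 0.485). Over all 20 arrays the Pearson correlation of Rbp4 with Ttr on the log2 scale was 0.065, which placed it at rank 2830 of 6432 genes. These arrays share the groups and the array runs. For a probe set as dim as that of Rbp4, nothing is read from this lack of likeness.

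Genes that mark hepatocytes were read beside Ttr, since the liver is its main source in the body. On low phosphate diet Alb ranged from 90.3 to 13097 units in Hyp kidneys (median 199) and from 101 to 944 units in normal kidneys (median 109.8). On control diet it ranged from 180 to 311 units in Hyp kidneys (median 247) and from 177 to 855 units in normal kidneys (median 439). Apart from array 10, Alb thus overlapped between the genotypes, and on control diet, where Ttr was highest, the median of Alb was lower in Hyp than in normal kidneys.

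Ahsg, which encodes the liver plasma protein fetuin-A, and Apoa1, the main apolipoprotein of high-density lipoprotein, behaved alike on control diet. Ahsg ranged from 15.4 to 37.8 units in Hyp control kidneys and from 16.7 to 135.9 units in normal control kidneys. Apoa1 ranged from 27.9 to 40.3 units in Hyp control kidneys and from 29.7 to 107.3 units in normal control kidneys. On array 10 Ahsg stood at 942.7 units and Apoa1 at 1706 units, both above every other array.

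The summed intensity of the 19 measured of 26 listed hepatocyte genes ran from 8591 to 29483 units in Hyp low phosphate kidneys (to 21292 without array 10). It ran from 7252 to 13208 units in Hyp control, from 8549 to 17733 units in normal low phosphate and from 7345 to 14267 units in normal control kidneys. All 4 ranges overlap, and Kng1, which the kidney also makes, contributed a group mean of 6969 to 8733 units to them. Without arrays 5 to 8 and 10 the ranges were 8591 to 8713, 7252 to 10370, 8549 to 10149 and 7345 to 8847 units in the same order, again overlapping. Of the 14 probe sets of these genes that passed the filter, 3 (of Ahsg, Apoa1 and Itih3) would lie below it without array 10. For 13 of the 14 the fitted difference, Hyp minus normal, on low phosphate diet was above 0 (median log2 0.56, beside 0.02 for all probe sets). The diet difference in Hyp mice was above 0 for 11 (median 0.59, beside 0.01). Both of these comparisons hold array 10, through which those 3 probe sets passed, and the counts were not made without it. Nothing is read from them. On control diet the genotype difference was above 0 for 8 (median 0.05, beside 0.02), and the diet difference in normal mice for 6 (median -0.08, beside 0.01). With limma 0 of the 14 were called in these comparisons, where 0.357%, 0.15%, 0.253% and 0.184% of all probe sets were. For pancreas, another tissue that makes transthyretin in its islets, the summed intensity of 11 of 16 listed genes ran from 2333 to 4580 units in Hyp low phosphate, 1992 to 3006 units in Hyp control, 2134 to 4355 units in normal low phosphate and 2051 to 4220 units in normal control kidneys. The islet hormone genes Gcg and Iapp were dim in every group, with group means of 23.4 to 36.3 and 6.56 to 9.70 units, while the brighter Ppy probe set had group means of 283 to 355 units. For the adrenal gland, which lies on the kidney, the summed intensity of 9 of 12 listed genes ran from 7486 to 14578 units in Hyp low phosphate, 8492 to 12068 units in Hyp control, 7336 to 13402 units in normal low phosphate and 8224 to 13346 units in normal control kidneys. The upper ends of the adrenal ranges all came from arrays 5 to 8. Without those arrays and array 10 the pancreas sums reached 2718, 3006, 2396 and 2854 units in the same order of groups. The adrenal sums then ran from 7486 to 8407 units in Hyp low phosphate and 8492 to 10238 units in Hyp control kidneys. They ran from 7336 to 9012 units in normal low phosphate and 8224 to 9332 units in normal control kidneys. The Hyp groups did not overlap in this setting, while with all arrays they did. It leaves fewer arrays and was chosen after the data were seen, so nothing is read from that separation. The part of liver, pancreas or adrenal RNA in the level of Ttr was not tested beyond these values.

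**Figure D4:**
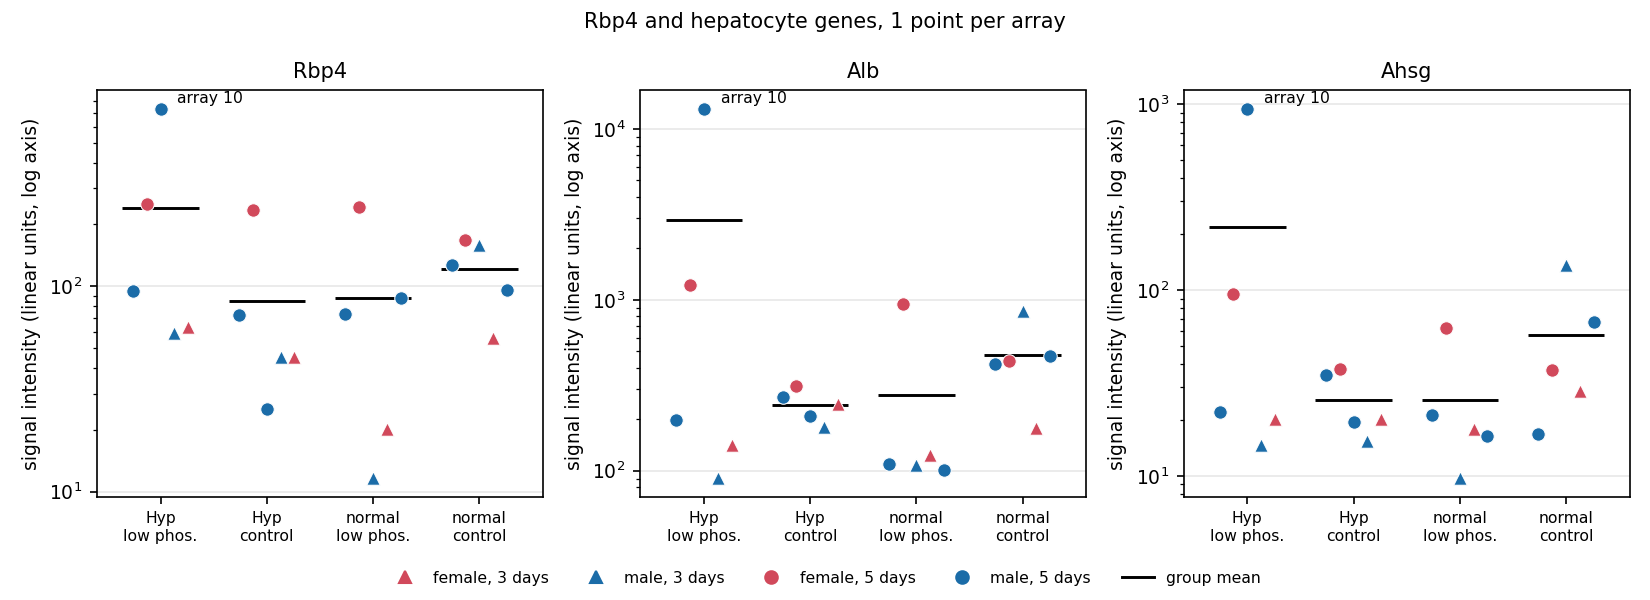
Signal intensity of Rbp4, Alb and Ahsg in linear units on log axes, with 1 point per array, coloured by sex and shaped by days; bars are the means of 5 arrays. Array 10 is the highest point of all 3 genes (730.5, 13097 and 942.7 units), and the other arrays overlap between groups.

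A list of 40 genes of thyroid hormone and retinol carriage, uptake and action was followed, chosen with earlier results of these data known. Of these, 26 were measured, and 25 probe sets of 17 genes passed the filter on low intensity. The 25 include Alb and Apoa1, which were also counted among the hepatocyte genes above. Apoa1 would lie below the filter without array 10. With limma 0 of the 25 were called for diet in Hyp mice, diet in normal mice, genotype on low phosphate diet, genotype on control diet, or the genotype by diet interaction. Of all probe sets 0.15%, 0.184%, 0.357%, 0.253% and 0.046% were called in the same order, so 0 of 25 is close to the background. Over all probe sets 399 had an unadjusted p under 0.05 for diet in Hyp mice, 744 for diet in normal mice, 823 and 743 for genotype on low phosphate and control diet, and 281 for the interaction. The median log2 difference of the 25 was 0.05 for diet in Hyp mice and 0.10 for diet in normal mice, beside 0.01 in both for all probe sets.

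The receptors that recover filtered carriers were bright in all groups. Lrp2 (megalin) averaged 8542 ± 1064 units in Hyp low phosphate, 8631 ± 1064 units in Hyp control, 9271 ± 1127 units in normal low phosphate and 8512 ± 1310 units in normal control kidneys (SD, n = 5 each). Its log2 differences, low phosphate minus control, were -0.01 ± 0.12 in Hyp and 0.13 ± 0.12 in normal mice (SE; limma, adjusted p = 0.998 and 0.854). Cubn encodes cubilin, the partner of megalin. The brighter of its 2 probe sets averaged 4302, 4394, 4780 and 4659 units in the same order of groups. With the diets averaged, the log2 difference, Hyp minus normal, was -0.11 for the brighter and 0.46 for the dimmer (limma, adjusted p = 0.478 and 0.254). Dab2, an adaptor for megalin endocytosis, averaged 4588, 4952, 4345 and 4486 units by the brightest of its 3 probe sets. Those probe sets differed in direction between genotypes. Hyp minus normal with the diets averaged, the log2 difference was 0.12 for the brightest and -0.20 and -0.03 for the others (limma, adjusted p = 0.578, 0.427 and 0.927). Stra6, the membrane receptor for RBP4, lay below the filter, with group means of 62.6, 23.4, 80.7 and 26.9 units, and was not tested.

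On the thyroid side, Dio1, the deiodinase that activates thyroxine in kidney, averaged 774 ± 422 units in Hyp low phosphate, 742 ± 381 units in Hyp control, 685 ± 329 units in normal low phosphate and 944 ± 442 units in normal control kidneys (SD, n = 5 each). The thyroid hormone receptor gene Thra, by its brighter probe set, averaged 1549, 1368, 1363 and 1214 units in the same order. Its 2 probe sets differed in direction. With the diets averaged, the log2 difference, Hyp minus normal, was 0.17 for the brighter and -0.21 for the dimmer (limma, adjusted p = 0.445 and 0.338). Slc7a8, an amino acid transporter that also carries thyroid hormones, averaged 1057, 800, 1324 and 1162 units. Its log2 genotype difference with the diets averaged, Hyp minus normal, was -0.41 ± 0.13 (SE; limma, adjusted p = 0.156). For days, 7 of the 25 probe sets were called (28%), against the 40.9% of all probe sets.

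With the diets averaged, 1 of the 25 (4%) was called between genotypes, against 1.28% of all probe sets. Aldh1a1, which oxidises retinaldehyde to retinoic acid, was higher in Hyp kidneys by 0.69 ± 0.13 on the log2 scale (SE; limma, adjusted p = 0.0147). Its intensities averaged 274 ± 102 units in Hyp low phosphate, 315 ± 85.3 units in Hyp control, 153 ± 37.8 units in normal low phosphate and 174 ± 24.5 units in normal control kidneys (SD, n = 5 each). On control diet the Hyp arrays (240 to 459.5 units) did not overlap the normal arrays (148.9 to 214.7 units). On low phosphate diet the Hyp arrays (195.6 to 445.3 units) overlapped the normal arrays (119.9 to 214.1 units). With no share counted over all probe sets, nothing is read from that separation. Neither diet alone gave a call (limma, adjusted p = 0.229 on control and 0.2185 on low phosphate diet). The dimmer Aldh1a1 probe set differed by 0.57 ± 0.17 (SE; limma, adjusted p = 0.152), and the call of the brighter one was lost with the array run as a block or within one sex or duration.

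Factors known to drive Ttr and other plasma protein genes in liver made a second list of 12 genes, of which 10 were measured and 5 passed the filter. With limma 0 of the 5 were called for diet in Hyp mice, diet in normal mice, or genotype on low phosphate or control diet. With 0.15%, 0.184%, 0.357% and 0.253% of all probe sets called there, 0 of 5 does not set these factors apart from other genes. Cebpa, a C/EBP family factor, averaged 1821 ± 150 units in Hyp low phosphate, 1787 ± 260 units in Hyp control, 1697 ± 382 units in normal low phosphate and 1729 ± 109 units in normal control kidneys (SD, n = 5 each). Hnf4a, a nuclear receptor of liver and proximal tubule, averaged 540, 446, 556 and 404 units in the same order, with array values from 65.6 to 1122. For sex 2 of the 5 were called (40%, against 16.6% of all probe sets). These were Hnf4a at -0.95 and Nr1h4 at -0.51, female minus male (log2; limma, adjusted p = 0.0140 and 0.0431). For days 1 of the 5 was called (20%, against 40.9%). The female pools fed for 5 days, which stood apart from the other arrays, enter the comparisons of sex and of days. Neither count was made without those pools, so nothing is read from the calls. Foxa1, Foxa2 and Foxa3, forkhead factors of the liver, all lay below the filter.

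The genes whose pattern over the 20 arrays was most like that of Ttr were ranked by Pearson correlation of log2 values among 6432 genes, as a description with no test. These genes share the arrays and the genotype contrast on which Ttr was chosen. The 8 highest were Pla2g7 (0.848), Col5a2 (0.845), Ptprf (0.83), Gimap4 (0.82), Aldh1a1 (0.81), Bex4 (0.81), Plscr1 (0.81) and Aoah (0.79). Pla2g7, which encodes a secreted phospholipase that inactivates platelet-activating factor, averaged 380 ± 84.6 units in Hyp low phosphate, 430 ± 67.2 units in Hyp control, 189 ± 21.0 units in normal low phosphate and 220 ± 32.7 units in normal control kidneys (SD, n = 5 each).

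Col5a2, a fibrillar collagen chain, was the member of these 8 with the highest correlation inside each genotype, at 0.73 over the 10 Hyp arrays and 0.81 over the 10 normal arrays. Its intensity averaged 528 ± 140 units in Hyp low phosphate, 848 ± 66.3 units in Hyp control, 306 ± 41.6 units in normal low phosphate and 524 ± 88.4 units in normal control kidneys (SD, n = 5 each). Both diet and genotype therefore ordered the means of Col5a2, but its Hyp low phosphate and normal control means were nearly equal, whereas those of Ttr were 1107 and 435 units.

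At the other end stood Dnase1 (-0.92), Car14 (-0.89), Slc2a2 (-0.87) and Ankrd33b (-0.83). Dnase1, a secreted deoxyribonuclease, averaged 1697 ± 173 units in Hyp low phosphate, 964 ± 307 units in Hyp control, 6780 ± 1740 units in normal low phosphate and 4124 ± 1320 units in normal control kidneys (SD, n = 5 each), which is the order of Ttr turned round. Slc2a2, the glucose transporter of the basolateral proximal tubule, had a correlation of -0.95 with Ttr over the 10 Hyp arrays and -0.74 over the 10 normal arrays. Its intensity averaged 3134 ± 143 units in Hyp low phosphate, 2170 ± 122 units in Hyp control, 3633 ± 373 units in normal low phosphate and 3046 ± 293 units in normal control kidneys (SD, n = 5 each).

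After the terms for group, sex and days were taken out, the 5 genes that varied most like Ttr between arrays were Caprin1 (0.87), Rap1gds1 (0.847), Mtx2 (0.835), Fnta (0.83) and Serac1 (0.82). None of the 12 genes named above was among them, and the residual correlations of those 12 lay between -0.51 for Ankrd33b and 0.52 for Gimap4.

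**Figure D5:**
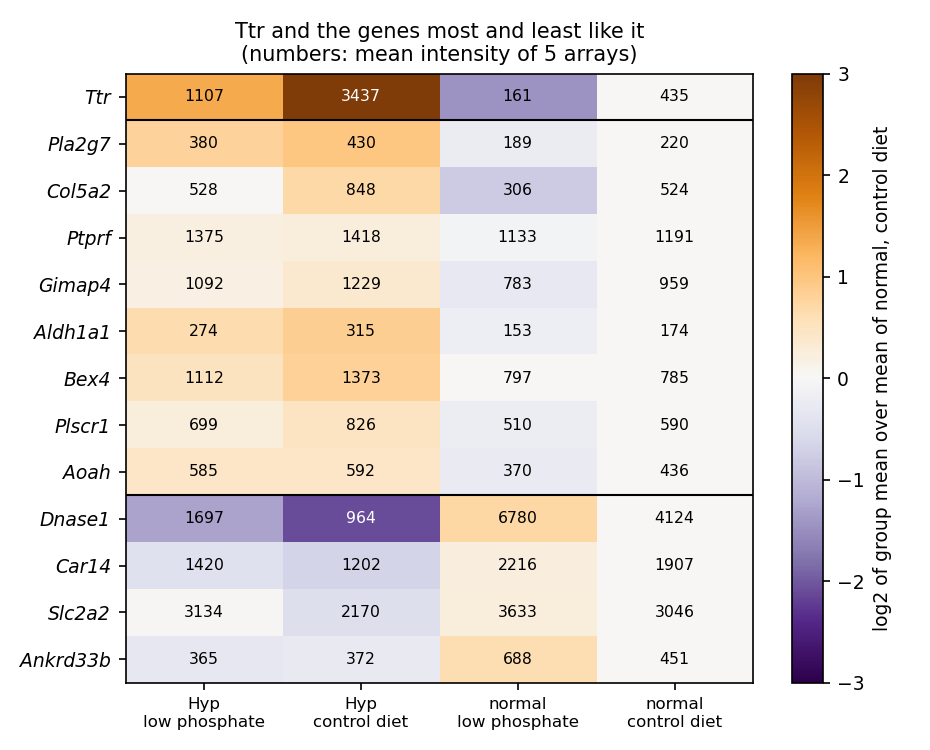
Mean intensity of 5 arrays in each group for Ttr, the 8 genes most like it and the 4 least like it over 20 arrays; the colour is the log2 ratio of each mean to that of normal control kidneys, within a gene. Ttr has a mean of 3437 units in Hyp control and 161 units in normal low phosphate kidneys, and Dnase1 runs the other way with 964 and 6780 units.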

How the data were processed

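The 20 arrays were grouped by genotype and diet from the labels. The deposited table holds 1 linear intensity per probe set and array, already scaled by the authors between arrays, as the near-equal trimmed means show. Their software was not given in the sources used here. The deposited values hold no background estimate. The number of arrays limits the precision. Of 12488 probe sets, 66 controls were set aside. Genes were named from the platform annotation, which gives 1 gene for 10833 probe sets, several for 396 and none for 1193; RefSeq gene numbers matched 10817. The table held 0 columns outside the 20 arrays, and 0 pairs of arrays were identical.

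Before log2 was taken, 38 units (the 20th percentile over the table) were added to each value, so a log2 difference understates the change of dim genes. The 8695 probe sets with a mean of at least 79.44 units, the 30th percentile, were tested. limma 3.58.1 in R 4.3.3 was fitted to all 20 arrays with terms for group and for the 4 strata of sex and days, with two-sided p-values adjusted by Benjamini-Hochberg within each comparison and a threshold of 0.05. Exact permutation tests rearranged labels within strata. The fit was tested on simulated data.

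Ttr, Rbp4 and the gene lists were chosen with earlier results of these data known, and the fall of Ttr on low phosphate diet was among those results. Genes named were Ttr, Rbp4, measured members of the carrier and regulator lists and of the marker lists, and, by correlation with Ttr, the 8 highest, the 4 lowest and the 5 highest after group and stratum terms; in a gene with several probe sets the brightest was ranked. Alternatives were an offset of 1, quantile normalization, no filter, a filter at the median, trend and robust moderation, no strata, the array run as a block, fits without arrays 5 to 8, within each sex and each duration, to the compared groups alone, and without each array. A fit without arrays 5 to 8 and 10 was added after seeing the data.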

Additional observations from a re-analysis of the deposited data

Results flagged for a closer look

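A gap test was applied to 68 groups of 5 arrays, over 17 genes. The highest array lay far from the other 4 of its group in 11 cases, on 6 different arrays. Independent, normally distributed values pass this test in about 5% of groups. The values here are linear intensities, and the genes are not independent, since Alb, Apoa1 and Ahsg are all liver genes. The 11 cases are therefore not read as more than that share. In Hyp low phosphate kidneys array 10 was the highest for 4 genes. Ttr stood at 1535.3 units with 1036.5 next, Rbp4 at 730.5 with 252.1 next, Alb at 13096.7 with 1226 next, and Ahsg at 942.7 with 95.1 next. In normal low phosphate kidneys array 6, a female 5-day pool, was the highest for 3 liver genes. Alb stood at 943.9 units with 123.4 next, Apoa1 at 91.8 with 44.7 next, and Ahsg at 62.4 with 21.3 next, while Ttr on that array was the lowest of its group at 98.6 units.

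For Rbp4 in Hyp control kidneys, array 7, also a female 5-day pool, stood at 234.1 units with 72.5 next. Among the genes most and least like Ttr, Dnase1 had 1999.2 units on array 14 of the Hyp low phosphate group with 1664.6 next. In normal control kidneys Bex4 had 1038.1 units on array 15 with 725 next, and Slc2a2 had 3557.6 units on array 11 with 3016.1 next.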

How the results depend on the processing

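The fall of Ttr on low phosphate diet kept its direction in every alternative run, from -1.78 to -1.27 in Hyp and -1.46 to -1.15 in normal mice (log2). It missed the threshold only in subsets, which hold fewer arrays. In Hyp mice these were females alone (-1.51, limma adjusted p = 0.875) and 3 days alone (-1.27, adjusted p = 0.401). In normal mice they were males alone (-1.24, adjusted p = 0.0561), females alone (-1.30, adjusted p = 0.827), 5 days alone (-1.30, adjusted p = 0.135) and 3 days alone (-1.21, adjusted p = 0.435). Without each array in turn the differences ran from -1.75 to -1.45 in Hyp mice (limma, highest adjusted p = 0.00126) and from -1.40 to -1.14 in normal mice (limma, highest adjusted p = 0.0159). The untested Ttr genotype difference on control diet was 2.46 at 3 days alone, and ran from 2.71 to 3.01 without each array.

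Some differences that did not pass the threshold changed sign. Ttr genotype by sex was 0.0079 after quantile normalization, 0.0109 with the array run as a block, 0.19 at 5 days alone, and -0.28 to 0.15 without each array. Ttr diet by days was 0.20 in males alone. Rbp4 by sex was -0.20 (-0.195) without arrays 5 to 8, without arrays 5 to 8 and 10, and at 3 days alone. Rbp4 by genotype with the diets averaged was -0.12 without arrays 5 to 8 and 10, and -0.0535 to 0.35 without each array, the sign turning without array 10 alone. On control diet it was 0.11 in females alone. The Rbp4 difference in days was 0.64 both without arrays 5 to 8 and in males alone, and 0.33 without arrays 5 to 8 and 10, none called. The exact permutation test of Rbp4 alone, which is not adjusted over all probe sets, passed for diet in Hyp mice (0.89) and genotype on low phosphate diet (0.94). The count of carrier and uptake probe sets called between genotypes was 0 in place of 1 with the array run as a block and in each subset by sex or days. The causes were not tested. Rbp4 has no value under the filter at the median, which it does not pass.

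No paired analysis was possible because a sample is numbered only by its array, no groups share a number, and the labels name no shared litter or batch; runs of consecutive arrays served for within-run ratios and as a block instead. Each pool joins 3 mice and each stratum of sex and days holds at most 2 arrays of a group, so the spread between single mice is not measured.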
